A study of Mus musculus with 30 samples.

Results

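The major histocompatibility complex (MHC) class II genes described here are H2-Aa, H2-Ab1, H2-Eb1, Cd74, Ciita, H2-DMa, H2-DMb1 and H2-DMb2, 8 of the 46078 genes in the count table. They were taken by name, with their rise after azoxymethane and dextran sulfate sodium (AOM/DSS) already known from these libraries, so their levels across the treatment stages are a description and carry no test. Polyadenylated RNA was measured by stranded sequencing in the epithelial layer of the colon, scraped from wild type C57BL/6J mice and separated from the lamina propria, in tissue taken outside the tumors. There were 6 groups of 5 libraries, namely females and males given vehicle, AOM/DSS for 9 weeks or AOM/DSS for 15 weeks. Treated mice received 1 intraperitoneal injection of AOM at 10 mg/kg, a carcinogen, followed by 3 cycles of 2.5% DSS in the drinking water, which irritates the gut, and the mice were 5 to 10 weeks old at the start. Vehicle mice received saline intraperitoneally and were killed at 9 weeks. No vehicle group was kept to 15 weeks, so AOM/DSS and age cannot be told apart in any comparison with the 15-week groups.

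MHC class II molecules are pairs of an alpha and a beta chain that carry peptides from endocytosed proteins to the cell surface, where CD4+ T cells read them. The invariant chain, encoded by Cd74, fills the groove of a newly made molecule, and H2-DM later removes the remaining piece of it and loads peptide. Dendritic cells, macrophages and B cells express these genes constantly, while many other cells, the intestinal epithelium among them, express them after exposure to interferon-gamma, which acts through the transactivator Ciita.

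On GRCm38, the genome build of the count table, 6 of the 8 genes lie within the MHC on chromosome 17. H2-Ab1 spans chr17:34263209-34269418 on the plus strand and H2-Aa spans chr17:34282744-34287827 on the minus strand, with H2-Eb1 next to them at chr17:34305877-34316199. H2-DMa lies at chr17:34135182-34139101, H2-DMb2 at chr17:34143307-34151553 and H2-DMb1 at chr17:34153072-34160230, all on the plus strand, as is H2-Eb1. Ciita is at chr16:10488178-10527564 and Cd74 at chr18:60803848-60812646, both on the plus strand.

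Class II promoters share short boxes that are bound by a complex of RFX, CREB and NF-Y proteins, onto which Ciita is recruited. RefSeq promoter windows on GRCm38.p6, from 250 bases before to 50 bases after the annotated start, were matched for 5 of the 8 members (H2-Aa, H2-Eb1, H2-DMa, H2-DMb1 and H2-DMb2) and for H2-Oa, H2-Ob and H2-Eb2, the other class II chains. H2-Ab1, Ciita and Cd74 are only named. Of the 8 genes with a window, 7 held TGATTGG, which reads CCAATCA on the other strand and contains the CCAAT box. The exception was H2-DMa, whose windows did not cover the start of the gene in the files. The window of H2-DMb2, which held the motif, did not cover the start of that gene in the files either. The stretches below show that motif in 4 members that changed to very different extents and in H2-Ob, which is not a member and was not called, each 60 bases long, 5′ to 3′ along the strand of the gene, with TGATTGG and, where present, GATGATGC in capitals.

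H2-Aa: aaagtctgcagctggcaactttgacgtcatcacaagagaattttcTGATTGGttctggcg
H2-Eb1: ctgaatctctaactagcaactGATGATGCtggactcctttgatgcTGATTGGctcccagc
H2-DMb1: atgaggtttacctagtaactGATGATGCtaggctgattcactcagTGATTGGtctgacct
H2-DMb2: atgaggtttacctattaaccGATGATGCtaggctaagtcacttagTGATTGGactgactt
H2-Ob: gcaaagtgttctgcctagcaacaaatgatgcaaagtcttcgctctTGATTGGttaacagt

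The stretch of H2-Aa is chr17:34287859-34287918 on the minus strand. The others are on the plus strand, at chr17:34305761-34305820 for H2-Eb1, chr17:34153083-34153142 for H2-DMb1, chr17:34145112-34145171 for H2-DMb2 and chr17:34238801-34238860 for H2-Ob. The motif began 50 bases before the annotated start in H2-Aa, 61 in H2-Eb1, 63 in H2-DMb1, 92 in H2-DMb2 and 59 in H2-Ob. In H2-Eb1 16 bases, and in both H2-DMb genes 17 bases, lay between GATGATGC and TGATTGG. The H2-DMb1 and H2-DMb2 stretches had the same base at 53 of 60 positions, although the 2 genes had the largest and the smallest change among the members at 9 weeks. Searched on both strands, TGATTGG was in 7.82% of 32851 promoter windows and GATGATGC in 0.703%, and 16 windows held both. Both windows of H2-DMa held neither, but they lie at chr17:34122582-34122881 and chr17:34125268-34125567. The position of H2-DMa in the files starts at 34135182, so these windows do not show the sequence at that start. The window of H2-DMb2, chr17:34144999-34145298, lies inside the gene as placed in the files, from 34143307. It does not show the sequence at that start either. In H2-DMb1 the window covers the start in the files, 34153072, but the printed stretch begins after it. A match describes the letters only.

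The libraries held 9265804 to 30806392 counted reads. The epithelial markers of the fixed list (Epcam, Cdh1, keratins, Cldn7, Vil1, Lgals4 and Cdx2) summed to between 13616 and 23725 CPM in every library, where CPM is the count scaled to the total of the library, and the leukocyte markers (Ptprc, Coro1a, Laptm5, Cd53, Cd52 and Rac2) were also present in every library, at 27.9 to 175 CPM in sum. Each value is RNA from a mixture of cells, so more cells of a type and more RNA per cell cannot be told apart. 3 libraries stood apart. Male vehicle replicate 1 held smooth muscle markers at 5790 CPM in sum against 2.12 to 212 in the other 29, female vehicle replicate 5 was the shallowest library, and female 9-week replicate 5 had low class II levels among the 9-week libraries. The median log2 change of the 8 members was 3.38 at 9 weeks and 2.37 at 15 weeks with all libraries, and 3.47 and 2.35 without these 3, a setting chosen after the data were seen.

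H2-Ab1 and H2-Aa encode the beta and alpha chains of the I-A molecule, the main class II molecule of C57BL/6 mice. H2-Ab1 was at 30.7, 11.5, 5.83, 18.8 and 13.8 CPM in the female vehicle libraries and at 40.01, 29.4, 13.5, 37.7 and 40.5 CPM in the male vehicle libraries. After 9 weeks of AOM/DSS it was at 220.0, 212, 284, 389 and 42.7 CPM in females and at 320, 465, 291, 125 and 212 CPM in males. At 15 weeks it was at 30.3, 241, 85.0, 105 and 255 CPM in females and at 37.7, 100.9, 138.8, 143.9 and 251 CPM in males. Every 9-week library thus lay above every vehicle library, the closest being female replicate 5, whereas at 15 weeks replicate 1 of each sex fell back among the vehicle values and the other 8 lay above them. Over the 10 libraries of a stage the mean was 24.2 ± 13.0 CPM (SD) in vehicle, 256 ± 123 CPM at 9 weeks and 138.8 ± 84.3 CPM at 15 weeks. The fitted log2 change against vehicle, the mean of the female and male changes, was 3.46 ± 0.405 (SE) at 9 weeks, or 11.03-fold, and 2.71 ± 0.393 at 15 weeks, or 6.53-fold.

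**Figure D1:**
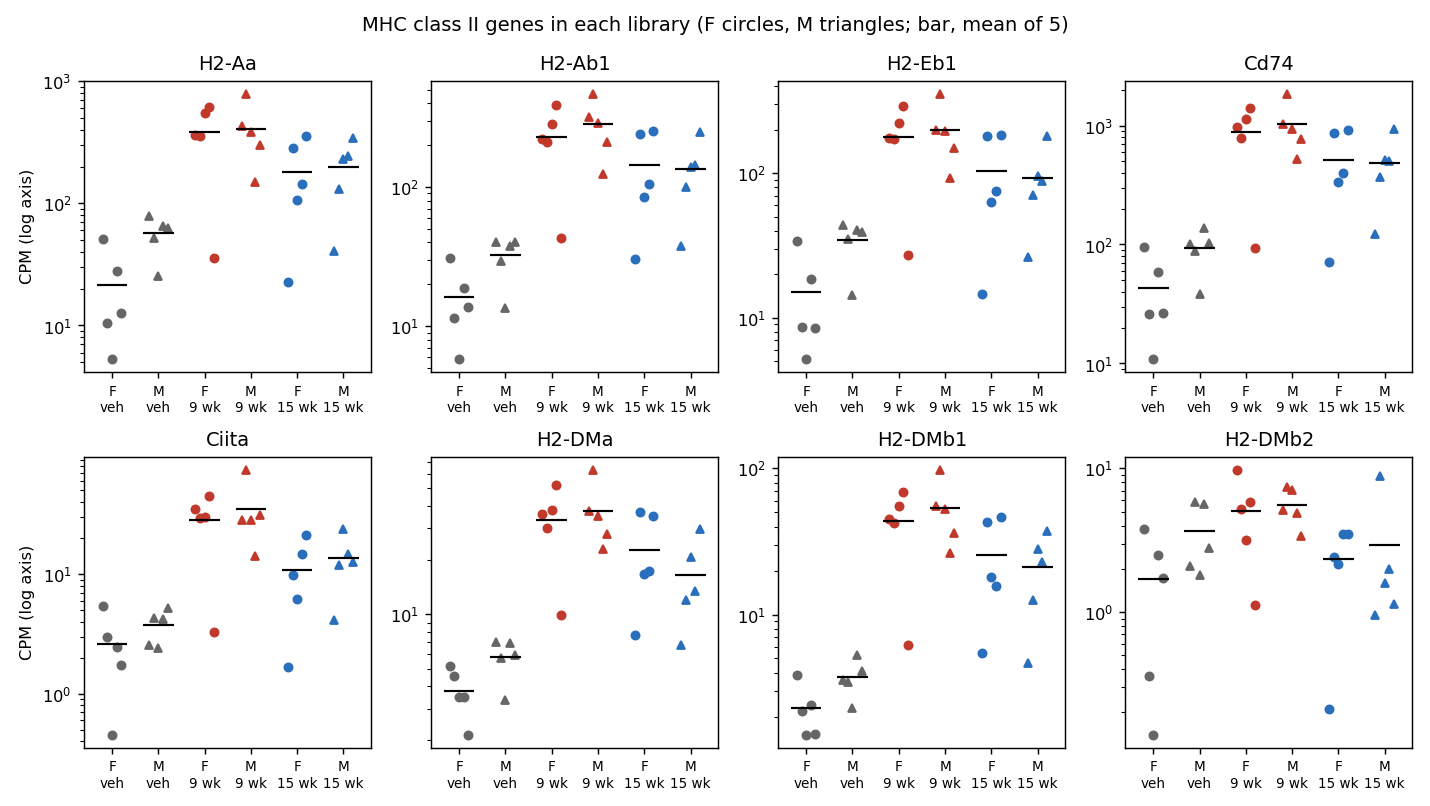
CPM on a log axis for each of the 8 MHC class II genes in the 30 libraries, grouped by stage and sex, with each point a library (n = 5 per group). Bars mark the mean of a group. For H2-Ab1 the mean over a stage is 24.2 CPM in vehicle, 256 at 9 weeks and 138.8 at 15 weeks, and the H2-DMb2 points of the 3 stages overlap.

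H2-Aa followed the same course. In vehicle it was at 51.0, 10.52, 5.33, 27.8 and 12.6 CPM in females and at 78.6, 51.9, 25.4, 65.2 and 63.0 CPM in males. In the 9-week libraries it was at 366, 358, 549.9, 610.4 and 35.4 CPM in females and at 430.4, 782, 381, 150.0 and 300.4 CPM in males, and at 15 weeks at 22.8, 283, 107, 145 and 353 CPM in females and at 40.6, 129.9, 229, 243 and 345 CPM in males. Female 9-week replicate 5 stayed inside the vehicle range, so 9 of 10 libraries at 9 weeks and 8 of 10 at 15 weeks exceeded every vehicle library. The log2 change was 3.48 ± 0.495 (SE) at 9 weeks and 2.54 ± 0.476 at 15 weeks.

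H2-Eb1 encodes the beta chain of I-E. The partner alpha chain gene, H2-Ea-ps, is not functional in this strain, and it had 3 reads in 1 male vehicle library, 1 read in 1 female 9-week library and 0 elsewhere. H2-Eb1 was nevertheless transcribed, at 5.19 to 43.8 CPM in vehicle, 27.1 to 351 CPM at 9 weeks and 14.7 to 183 CPM at 15 weeks. The log2 change was 3.02 ± 0.435 (SE) at 9 weeks and 2.20 ± 0.422 at 15 weeks, the smallest of the 3 chains at both times.

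Cd74 was the most abundant member in every stage. In vehicle it was at 94.8, 26.0, 10.9, 59.1 and 26.3 CPM in females and at 100.5, 88.3, 38.2, 137 and 104 CPM in males. At 9 weeks it was at 981, 791, 1125, 1416 and 93.6 CPM in females and at 1035, 1831, 942, 519 and 773 CPM in males. At 15 weeks it was at 71.1, 869, 333, 396 and 912 CPM in females and at 123, 367, 514, 506 and 932 CPM in males. As for H2-Aa, 1 library at 9 weeks and replicate 1 of each sex at 15 weeks overlapped the vehicle values. Its log2 change was 3.87 ± 0.475 (SE) at 9 weeks, or 14.7-fold, and 3.08 ± 0.459 at 15 weeks, or 8.43-fold.

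Ciita, the master regulator of the family, was expressed at a low level. It was at 5.45, 3.01, 0.456, 2.47 and 1.73 CPM in female and 2.53, 4.33, 2.43, 4.196 and 5.21 CPM in male vehicle libraries, from 13 to 152 reads in a library. The 9-week values were 35.3, 29.3, 29.98, 44.9 and 3.29 CPM in females and 28.3, 74.1, 28.1, 14.1 and 31.2 CPM in males, and the 15-week values were 1.68, 9.82, 6.17, 14.8 and 21.2 CPM in females and 4.16, 12.01, 23.9, 14.8 and 12.7 CPM in males. The 9-week libraries exceeded every vehicle library in 9 of 10 cases and the 15-week libraries in 8 of 10. The log2 change was 3.30 ± 0.44 (SE) at 9 weeks and 2.02 ± 0.425 at 15 weeks, and the drop from 9 to 15 weeks, 1.28 ± 0.403 on the log2 scale, was larger for Ciita than for any other member, which fell by 0.73 to 0.95.

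H2-DMa and H2-DMb1 encode the alpha chain and a beta chain of the peptide exchange factor H2-DM. H2-DMa was at 2.16 to 6.98 CPM in vehicle, 9.86 to 63.0 CPM at 9 weeks and 6.80 to 36.8 CPM at 15 weeks, and its log2 change was 2.87 ± 0.301 (SE) and 2.14 ± 0.294. H2-DMb1 was at 1.51 to 5.29 CPM in vehicle, 6.23 to 97.6 CPM at 9 weeks and 4.69 to 46.7 CPM at 15 weeks, and its log2 change was 4.01 ± 0.415 at 9 weeks, or 16.1-fold, the highest of the members, and 3.07 ± 0.402 at 15 weeks. Along with H2-Ab1, these were the 3 of 8 members whose 9-week and vehicle libraries did not overlap, and 0 of 8 did not overlap at 15 weeks. Among all genes tested, 0.861% were higher without overlap at 9 weeks and 0.0799% at 15 weeks.

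H2-DMb2, the other H2-DM beta chain gene, differed from the rest. It was at 3.80, 0.356, 0.140, 2.51 and 1.73 CPM in female and 2.10, 5.85, 1.82, 5.69 and 2.79 CPM in male vehicle libraries. The 9-week libraries held 9.76, 5.23, 3.19, 5.84 and 1.13 CPM in females and 5.12, 7.46, 7.07, 4.90 and 3.40 CPM in males. At 15 weeks it was at 0.210, 2.40, 2.15, 3.52 and 3.503 CPM in females and at 0.949, 8.92, 1.59, 1.98 and 1.14 CPM in males. The stages overlapped throughout, with 3 of 10 libraries above every vehicle library at 9 weeks and 1 of 10 at 15 weeks. Its log2 change was 1.06 ± 0.482 (SE) at 9 weeks and 0.15 ± 0.481 at 15 weeks, where it ran from -0.36 without male 15-week replicate 2 to 0.42 with other single libraries left out. The ratio of H2-DMb1 to H2-DMb2 CPM therefore moved from a median of 1.13 in vehicle to 9.37 at 9 weeks and 12.4 at 15 weeks. The transcripts of the 2 genes share 369 stretches of 50 identical bases, 27.2% of those of H2-DMb1 and 21.2% of those of H2-DMb2, so reads could be split between them or dropped, and their counts are less certain than those of the other members, whose transcripts share none among the class II genes.

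**Figure D2:**
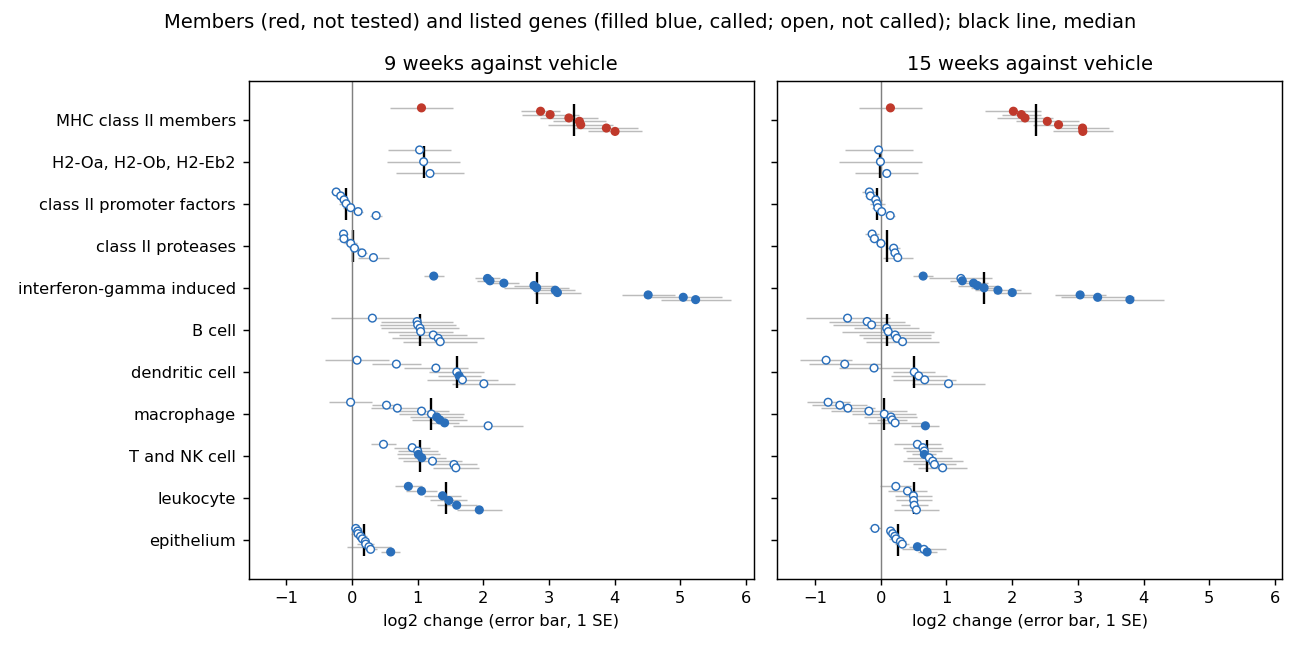
Log2 change against vehicle at 9 weeks (left) and 15 weeks (right) on the x axis, with bars of 1 SE, for the members in red and for genes of 10 lists in blue, filled where called, with a black line at each median. 7 members lie between 2.87 and 4.01 at 9 weeks, H2-DMb2 lies at 1.06 beside the B cell markers, and the epithelial markers lie between 0.06 and 0.59.

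Levels of different genes are compared here per length, as TPM, which divides by transcript length. In vehicle the order of mean TPM was Cd74 (33.6 ± 25.1, SD, n = 10), H2-Aa (19.9 ± 16.8), H2-Eb1 (11.5 ± 8.83), H2-Ab1 (11.05 ± 7.64), H2-DMa (1.73 ± 0.872), H2-DMb1 (1.12 ± 0.632), H2-DMb2 (1.05 ± 0.853) and Ciita (0.315 ± 0.184). Cd74 was above H2-Aa, and H2-Aa above H2-Eb1, in 10 of 10 vehicle libraries, but H2-Eb1 and H2-Ab1 exchanged places (6 of 10), as did H2-DMb1 and H2-DMb2 (5 of 10). At 9 weeks the mean TPM was 575 ± 322 for Cd74, 243 ± 146.5 for H2-Aa, 142.9 ± 77.3 for H2-Ab1, 107 ± 59.4 for H2-Eb1, 23.8 ± 13.7 for H2-DMb1, 15.3 ± 7.56 for H2-DMa, 4.03 ± 2.63 for Ciita and 2.94 ± 1.31 for H2-DMb2. H2-DMb1 thus rose past H2-DMa (9 of 10 libraries) and Ciita reached the level of H2-DMb2, above it in 6 of 10. The order at 15 weeks was that of 9 weeks, from 222 ± 187 TPM for Cd74 down to 1.09 ± 0.823 for Ciita and 1.08 ± 1.04 for H2-DMb2. The median ratio of H2-Aa to H2-Ab1 TPM was 1.73, 1.63 and 1.45 in the 3 stages, and that of Cd74 to H2-Aa was 1.94, 2.44 and 2.75. Against H2-Ab1, H2-Eb1 lost ground. It was the higher of the 2 in 6 of 10 vehicle libraries, whereas H2-Ab1 was higher in 10 of 10 at both 9 and 15 weeks.

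The other class II genes are not members, and their changes were tested. A gene was called where the adjusted p (edgeR quasi-likelihood test, Benjamini-Hochberg over 16261 genes) was under 0.05, the log2 change exceeded 0.4 and the mean FPKM was at least 1 in a compared group. By this rule 5.51% of all genes tested were called higher and 2.78% lower at 9 weeks, and 3.46% higher and 3.89% lower at 15 weeks. H2-Oa and H2-Ob form H2-O, an inhibitor of H2-DM found mainly in B cells, and H2-Eb2 is a further beta chain. 0 of these 3 genes were called at either time. H2-Ob had a log2 change of 1.19 ± 0.516 (adjusted p = 0.12) at 9 weeks and -0.03 ± 0.517 (adjusted p = 0.972) at 15 weeks, H2-Oa of 1.09 ± 0.556 (adjusted p = 0.192) and 0.00 ± 0.634, and H2-Eb2 of 1.03 ± 0.479 (adjusted p = 0.149) and 0.09 ± 0.481. These are values close to those of H2-DMb2. Of the 6 lysosomal enzymes that act on the invariant chain or on antigens (Ctss, Ctsl, Ctsb, Ctsd, Lgmn and Ifi30), 0 were called, with a median log2 change of 0.01 at 9 weeks and 0.10 at 15 weeks. Of the 7 genes of the RFX, NF-Y and CREB proteins, 0 were called, and Rfx5 had the highest change at 9 weeks, 0.37 ± 0.0889 (adjusted p = 0.00441), under the minimum size. Of the 2 ubiquitin ligases that remove class II molecules from the surface, March1 and March8, 0 were called.

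Interferon-gamma signals through its receptor and the kinases Jak1 and Jak2 to Irf1 and Ciita. Ifng itself was barely detected in vehicle, with 0 reads in 8 of 10 libraries and 1 read in each of the other 2. At 9 weeks it reached up to 116 reads in a library and at 15 weeks up to 8. Its adjusted p was 5e-05 at 9 weeks and 0.123 at 15 weeks, but its mean FPKM was below 1 in every stage and so it was not called. Of the pathway genes reported, Socs1, a feedback inhibitor (log2 change 2.14 ± 0.253, adjusted p = 8.47e-07), and Irf1 (0.75 ± 0.11, adjusted p = 2.5e-05) were called higher at 9 weeks. At 15 weeks Socs1 (1.52 ± 0.251) was called, and the receptor and kinase genes were not called at either time. Of 11 genes known to be induced by interferon-gamma, 11 were higher at 9 weeks, with a median log2 change of 2.81, and 10 at 15 weeks, with a median of 1.57. They were led by Cxcl9, a T cell attractant (5.23 ± 0.533, adjusted p = 1.26e-07), Iigp1, a GTPase acting on intracellular pathogens (5.04 ± 0.591, adjusted p = 8.09e-07), and Nlrc5, the class I counterpart of Ciita (4.51 ± 0.405, adjusted p = 1.76e-08). At 15 weeks these 3 were at 3.79, 3.30 and 3.04. The sum of the 11 genes was above every vehicle library in 10 of 10 libraries at 9 weeks and 9 of 10 at 15 weeks. Of 5 costimulatory and checkpoint genes, Cd86 (2.08 ± 0.479, adjusted p = 0.00303), Cd80 (1.98 ± 0.488, adjusted p = 0.00533) and Cd40 (1.60 ± 0.421, adjusted p = 0.00883), costimulators of antigen-presenting cells, were higher at 9 weeks by p and size but missed the FPKM minimum. Cd274, encoding PD-L1, was called at 9 weeks (1.45 ± 0.184, adjusted p = 2.77e-06) and 15 weeks (0.54 ± 0.182, adjusted p = 0.0397), and the call at 15 weeks was lost in 10 of the 20 fits that left out 1 library of the compared groups.

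Markers of the cells that carry class II molecules constantly were measured beside these changes. None of the markers named here was at 0 in every library of a stage, but S100a8, a neutrophil marker, was at 0 in every female vehicle library. All 6 leukocyte markers were called higher at 9 weeks, with a median log2 change of 1.43, and 0 of 6 at 15 weeks, with a median of 0.50. Cd53 (1.94 ± 0.342, adjusted p = 0.000209), Cd52 (1.60 ± 0.305) and Laptm5 (1.48 ± 0.28) changed most, and Ptprc, which encodes CD45, had 1.06 ± 0.239 (adjusted p = 0.0026) at 9 weeks and 0.23 ± 0.238 (adjusted p = 0.515) at 15 weeks. The summed leukocyte CPM was 27.9 to 74.2 in vehicle, 61.1 to 175 at 9 weeks and 33.8 to 104 at 15 weeks. All 7 members other than H2-DMb2 had a larger log2 change than every one of these 6 leukocyte markers at both times, 2.87 or more at 9 weeks and 2.02 or more at 15 weeks, a comparison of values that was not tested. The members were chosen with their rise known, so this ranking follows in part from that choice.

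By cell type, 0 of 8 B cell markers were called at either time (median log2 change 1.04 and 0.10). Cd79a, a subunit of the B cell receptor, was at 1.24 ± 0.52 (adjusted p = 0.107) and 0.25 ± 0.517 (adjusted p = 0.769). Of 7 dendritic cell markers tested, Itgax, encoding CD11c, was called at 9 weeks (1.63, adjusted p = 0.00079) and 0 at 15 weeks, with medians of 1.60 and 0.51. Ccr7 (2.01, adjusted p = 0.00421), Xcr1 (1.68, adjusted p = 0.0305) and Flt3 (1.60, adjusted p = 0.00835) passed the p and size limits at 9 weeks and missed only the FPKM minimum, so 4 of 7 were higher by p and size. Of 9 macrophage markers, 3 were called at 9 weeks, Cd14 (1.41 ± 0.217), C1qb (1.34 ± 0.418) and C1qa (1.29 ± 0.405), and Cd14 alone at 15 weeks (0.68 ± 0.214), with medians of 1.21 and 0.05. Fcgr1 also passed at 9 weeks apart from the FPKM minimum. Leaving out female vehicle replicate 2 or female 9-week replicate 4 lowered the macrophage count at 9 weeks to 1, and leaving out male vehicle replicate 1 raised it to 6. The call of Cd14 at 15 weeks was lost without replicate 5 of either sex at 15 weeks, female vehicle replicate 2 or 5, or male vehicle replicate 1. Csf1r, the receptor that macrophages depend on, was at 1.06 ± 0.411 (adjusted p = 0.0775) and -0.50 ± 0.414 (adjusted p = 0.406).

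Among the other cell types, 2 of 8 T and NK cell markers were called at 9 weeks, Cd3g (1.06) and Nkg7 (1.01), and Lck (0.66) at 15 weeks. Leaving out female vehicle replicate 1 or 4, male vehicle replicate 5 or male 9-week replicate 1 or 3 took the 9-week count to 0, and leaving out male 9-week replicate 5 took it to 4. By p and size, without the FPKM minimum, 6 of 8 were higher at 9 weeks. Cd3e was at 0.92 (adjusted p = 0.0195) and 0.66 (adjusted p = 0.0869), and it was not called at 9 weeks because its FPKM was low. Plasma cell markers were called for 3 of 5 genes at 9 weeks, Igha (2.36), Jchain (2.15) and Mzb1 (1.90), and for 0 at 15 weeks. Neutrophil markers, from cells that do not normally carry class II, were called for 4 of 6 at 9 weeks, led by S100a8 (8.03), S100a9 (7.07) and Retnlg (5.08), and for 2 at 15 weeks, S100a8 (5.10) and S100a9 (3.85), the latter count being 0 without male 15-week replicate 5. The size of the S100a8 change rests in part on female vehicle libraries with 0 reads. The summed neutrophil CPM at 9 weeks was above every vehicle library in 1 of 10 libraries and below every one in 1. Epithelial markers were slightly higher, with a median log2 change of 0.18 at 9 weeks and 0.27 at 15 weeks. Their sum was above every vehicle library in 7 of 10 libraries at 9 weeks and 5 of 10 at 15 weeks. Krt20, a keratin of the surface epithelium, was called at 9 weeks (0.59 ± 0.144) and, with Krt18 (0.56 ± 0.127), at 15 weeks (0.71 ± 0.144), while Epcam was at 0.21 ± 0.0625 (adjusted p = 0.0235) and 0.15 ± 0.0625 (adjusted p = 0.0891), below the minimum size. In the stroma, 0 markers were called at 9 weeks, and at 15 weeks 3 of 6 mesenchymal, 6 of 6 smooth muscle and 1 of 4 endothelial markers were lower. The smooth muscle count was 0 without female vehicle replicate 1 or male vehicle replicate 1. The mesenchymal count ran from 1 to 4 with single libraries left out, being 1 without replicate 1 of either vehicle group among others, and the endothelial count was 2 without male 15-week replicate 5.

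H2-Ab1 and the immune markers parted in single libraries, whereas H2-DMb2 did so in 0 libraries at either time. H2-DMb2 was above every vehicle library in only 3 of 10 libraries at 9 weeks and 1 of 10 at 15 weeks. In 7 of 10 libraries at 15 weeks the summed CPM of the B cell, dendritic cell, macrophage and leukocyte markers were all at or below the highest vehicle library. H2-Ab1 in these was at 30.3, 241 and 85.0 CPM in female replicates 1, 2 and 3 and at 37.7, 138.8, 143.9 and 251 CPM in male replicates 1, 3, 4 and 5, against at most 40.5 CPM in vehicle. In female 15-week replicate 2, H2-Ab1 was at 241 CPM with a leukocyte sum of 51.8 CPM and a B cell sum of 8.60 CPM, whereas male vehicle replicate 2 had 29.4 CPM with 74.2 and 58.1 CPM. At 9 weeks the same held for 3 of 10 libraries, with H2-Ab1 at 284 and 42.7 CPM in female replicates 3 and 5 and at 212 CPM in male replicate 5. In these 10 libraries the sum of the interferon-gamma-induced genes was 151 to 607 CPM, against 94.7 to 179.9 CPM in vehicle, and the epithelial sum was 14821 to 23725 CPM. Thus 8 of the 10 libraries whose 4 immune marker sums did not exceed the vehicle range had H2-Ab1 above its own vehicle range. Among all treated libraries H2-Ab1 was above that range in 10 of 10 at 9 weeks and 8 of 10 at 15 weeks. H2-Ab1 was chosen with its rise known, so the count is a description and no test. The upper ends of the macrophage (152 CPM) and dendritic cell (11.7 CPM) ranges came from male vehicle replicate 1, the library rich in smooth muscle markers, and without it, a setting chosen after the data were seen, they were 90.3 and 11.3 CPM, and 6 of 8 libraries had H2-Ab1 above the vehicle range.

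**Figure D3:**
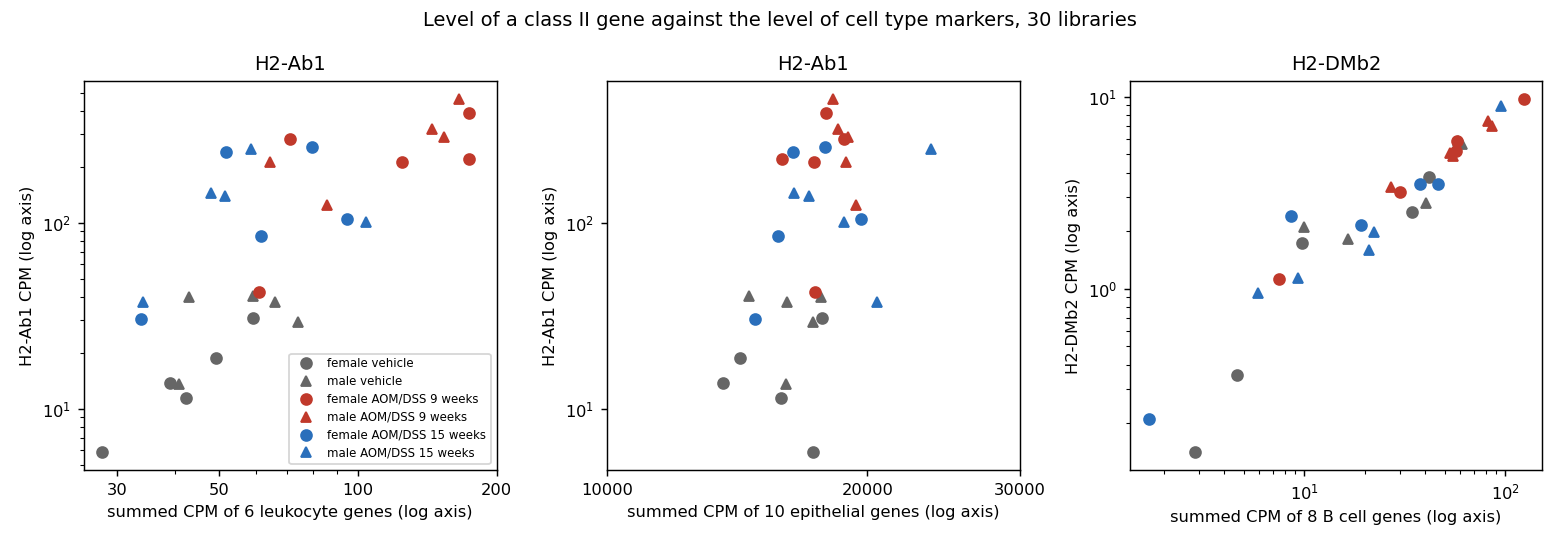
H2-Ab1 CPM against the summed CPM of the leukocyte markers (left) and epithelial markers (middle), and H2-DMb2 CPM against the summed B cell markers (right), on log axes, with a point for each of the 30 libraries, colour for stage and shape for sex. At leukocyte sums below 74.2 CPM, the highest in vehicle, many AOM/DSS points for H2-Ab1 sit above the highest vehicle level of 40.5 CPM, while the H2-DMb2 points of the 3 stages follow the B cell sum together.

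Per unit of marker RNA, the medians of H2-DMb2 and of other members differed in their course. The median ratio of H2-Ab1 to the leukocyte sum was 0.389 in vehicle, 2.05 at 9 weeks and 2.04 at 15 weeks, and that of H2-Ab1 to the B cell sum was 0.914, 5.67 and 6.43. Cd74 per leukocyte sum went from 1.195 to 6.76 and 7.71, and H2-DMb1 from 0.0548 to 0.362 and 0.385. H2-DMb2 per B cell sum had medians of 0.0923, 0.0938 and 0.103, H2-Ob of 0.137, 0.150 and 0.119, and H2-Eb2 of 0.0483, 0.0483 and 0.0498. The medians of H2-DMb2, H2-Ob and H2-Eb2 relative to B cell markers thus stayed within a narrow range across stages while those of H2-Ab1 rose several-fold. A ratio of this kind sets 1 cell type against the whole, and it cannot tell which cells made the RNA.

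Each marker score, the mean log2 CPM of a list in a library, was also entered in the model as a covariate. For the 7 members other than H2-DMb2 the log2 change at 9 weeks was 1.62 to 2.79 with the leukocyte score, 1.78 to 3.04 with the macrophage score, 1.92 to 3.07 with the dendritic cell score, 2.60 to 3.63 with the B cell score, 2.61 to 4.05 with the T and NK cell score and 2.77 to 3.96 with the epithelial score, against 2.87 to 4.01 with none. At 15 weeks it was 1.57 to 2.71 with the leukocyte score, 1.92 to 3.01 with the dendritic cell score, 2.05 to 3.03 with the macrophage score, 2.10 to 3.31 with the B cell score and 1.99 to 3.08 with the epithelial score, against 2.02 to 3.08 with none. All 7 kept a positive change of 1.57 or more under every score at both times. H2-DMb2 went from 1.06 to -0.97 with the leukocyte score, -0.17 with the dendritic cell score and 0.29 with the B cell score at 9 weeks. It was at 0.31 with the macrophage, 0.56 with the T and NK cell, 0.82 with the mesenchymal and 1.14 with the epithelial score. The drop of the 8 members from 9 to 15 weeks, a median of -0.87, became 0.11 with the leukocyte score, 0.17 with the dendritic cell score and 0.13 with the macrophage score. Under each of these scores H2-Aa, H2-Ab1, H2-Eb1 and Cd74 had a positive change, while Ciita, H2-DMa and H2-DMb1 kept a negative one. With the other scores the 7 members apart from H2-DMb2 all had a negative change, in some cases small against its SE. It was -0.56 to -0.08 with the B cell, -1.25 to -0.65 with the T and NK cell, -1.24 to -0.73 with the epithelial and -0.92 to -0.06 with the mesenchymal score. The -0.08 of Cd74 with the B cell score had an SE of 0.45, and the -0.06 of H2-Eb1 with the mesenchymal score an SE of 0.502. These scores move with treatment and were measured in the same libraries, so they share its effect. The part of immune or epithelial cell content in the rise was not tested directly.

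**Figure D4:**
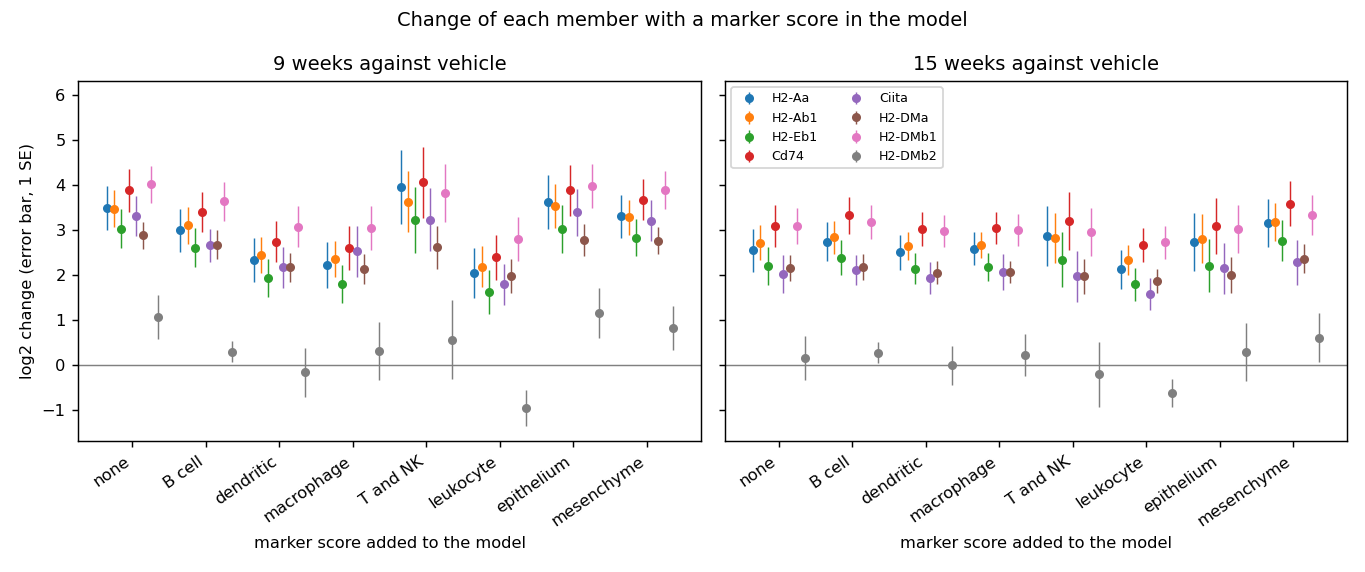
Log2 change of each member against vehicle at 9 and 15 weeks with no covariate and with each marker score as a covariate (x axis), with bars of 1 SE. The 7 members other than H2-DMb2 stay at 1.57 or above throughout, the leukocyte score lowering them most, while H2-DMb2 falls to -0.97 at 9 weeks.

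Within a stage, libraries with more H2-Ab1 could be set against those with more of each marker, without the step between stages. 7 scores were tested in each of 3 stages, 21 relations, with two-sided permutation p adjusted over the 21, and 10 passed by Pearson r and 4 by Spearman rho, which were the dendritic cell, macrophage and T and NK cell scores in vehicle and the interferon-gamma-induced score at 9 weeks. Among the 10 vehicle libraries H2-Ab1 followed the dendritic cell score (r = 0.923, permutation p = 0.00031, adjusted p = 0.00325; rho = 0.952, permutation p = 0.00018, adjusted p = 0.00283) and the macrophage score (r = 0.894, permutation p = 0.00053, adjusted p = 0.00371; rho = 0.939, permutation p = 0.00027, adjusted p = 0.00283). In vehicle the B cell (r = 0.782) and leukocyte (r = 0.832) scores also passed, and the T and NK cell score passed in the opposite direction (r = -0.758). The interferon-gamma-induced score did not pass in vehicle (r = 0.285, permutation p = 0.424, adjusted p = 0.523; rho = 0.164, permutation p = 0.657, adjusted p = 0.69).

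In the treated mice the interferon-gamma-induced score had the highest r with H2-Ab1 at both times with all 10 libraries. The r was 0.928 at 9 weeks (permutation p = 0.00026, adjusted p = 0.00325; rho = 0.794, permutation p = 0.00831, adjusted p = 0.0436) and 0.810 at 15 weeks (permutation p = 0.00319, adjusted p = 0.0134; rho = 0.721, permutation p = 0.0227, adjusted p = 0.0796). At 9 weeks the macrophage (r = 0.862), dendritic cell (r = 0.792) and leukocyte (r = 0.690) scores also passed by r but not by rho, and at 15 weeks no immune cell score did, with r of 0.428 for dendritic cells, 0.480 for macrophages and 0.513 for leukocytes. The epithelial score passed in no stage (r = -0.611 in vehicle, -0.237 at 9 weeks and 0.118 at 15 weeks). After leaving out the 2 libraries farthest from the median of each score, r for the interferon-gamma-induced score was 0.688 at 9 weeks and 0.747 at 15 weeks, both with an adjusted permutation p of 0.102, and of the 21 relations only the macrophage score in vehicle passed by r (r = 0.925, adjusted permutation p = 0.0204). At 9 weeks the dendritic cell (0.770), macrophage (0.754) and, with opposite sign, epithelial (-0.751) scores then had a larger r than the interferon-gamma-induced score, so its place there rested on the outermost libraries. In vehicle the dendritic cell (0.898) and T and NK cell (-0.728) scores kept nearly the same r with 8 libraries and did not pass by r. By rho 2 of the 21 relations passed, the dendritic cell and macrophage scores in vehicle, each with rho = 0.905 and an adjusted permutation p of 0.0484. With each sex centred on its own mean, r for the interferon-gamma-induced score was 0.925 and 0.824. Differences between these correlations were not tested.

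**Figure D5:**
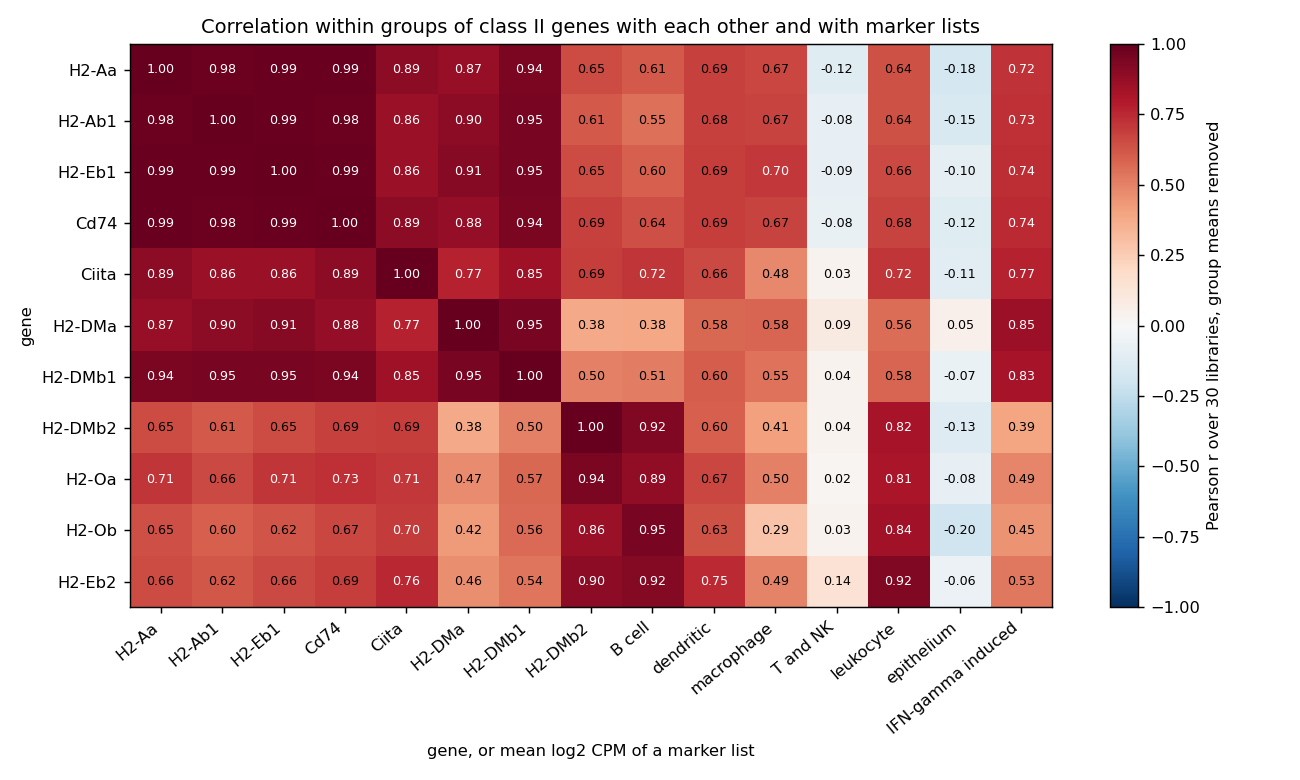
Pearson r over the 30 libraries, after the mean of each group was removed, between class II genes (rows) and the members, marker scores and interferon-gamma-induced score (columns), from blue at -1 to red at 1. H2-DMb2 has its highest r with the B cell score, 0.923, and H2-Ab1 has r = 0.552 with that score and 0.729 with the interferon-gamma-induced score.

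Over all 30 libraries with the group means removed, the 7 members other than H2-DMb2 varied together, with r of 0.767 to 0.990 in their 21 pairs and a median of 0.945. H2-DMb2 had r of 0.382 to 0.694 with these 7, but 0.939 with H2-Oa, 0.898 with H2-Eb2, 0.865 with H2-Ob and 0.923 with the B cell score. These are descriptions over points that share a library and its depth. The 10 genes outside the members whose group-centred levels were most like the mean of the 8 members were Spink1, Muc1, Slfn2, Sp110, Itgal, Sp140, Mical1, Icam1, H2-T10 and H2-Q6, with r of 0.870 down to 0.838. Itgal and Icam1 encode an integrin chain of leukocytes and its ligand, Muc1 encodes a membrane mucin and Spink1 a secreted trypsin inhibitor. H2-T10 and H2-Q6 belong to the class I family, whose near-identical copies make their counts uncertain. Being alike in this sense did not go with the rise by stage for every one of the 10, as H2-Q6 had a log2 change of 3.09 (adjusted p = 3.12e-07) at 9 weeks and Mical1 of 0.15 (adjusted p = 0.622).

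The sexes were not used to choose the members, and differences between them were tested. In vehicle all 8 members were higher in males, by 0.39 to 1.30 on the log2 scale, and 0 of 8 were called (0.178% of all genes were called in this comparison). H2-Aa had the largest difference, 1.30 ± 0.652 (SE, 95% interval -0.04 to 2.64, adjusted p = 0.282), with 5.33 to 51.0 CPM in females and 25.4 to 78.6 CPM in males, ranges that overlap. H2-Ab1 differed by 0.90 ± 0.533 (-0.20 to 1.99, adjusted p = 0.378) and Cd74 by 1.01 ± 0.608 (-0.24 to 2.25, adjusted p = 0.386). The median leukocyte sum was 42.4 CPM in female and 59.1 CPM in male vehicle libraries, and the median B cell sum was 9.71 and 40.3 CPM. With the dendritic cell or macrophage score in the model the H2-Ab1 difference was -0.0586 or -0.15.

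At 9 weeks males differed from females by 0.10 to 0.31, with every adjusted p at 0.999, and 0 of 8 members were called (0.0492% of all genes). H2-Ab1 differed by 0.30 ± 0.517 (SE, 95% interval -0.76 to 1.36). At 15 weeks the differences ran from -0.47 to 0.35, the lowest adjusted p was 0.704, and 0 of 8 were called (0.184% of all genes), H2-Ab1 differing by -0.12 ± 0.518 (-1.18 to 0.94). The median log2 change of the members was 3.63 in females and 3.02 in males at 9 weeks, and 2.99 and 1.97 at 15 weeks, from a lower vehicle level in females. The interaction of sex and AOM/DSS, which asks whether the changes differ, was negative for 8 of 8 members at both times, -1.20 to -0.09 at 9 weeks and -1.29 to -0.04 at 15 weeks, and 0 were called at either time, where 0% of all genes were. For H2-Ab1 it was -0.60 ± 0.74 (-2.11 to 0.92, adjusted p = 0.88) at 9 weeks and -1.02 ± 0.742 (-2.54 to 0.51, adjusted p = 0.813) at 15 weeks. In the 5 sex comparisons, 0 members had an unadjusted p under 0.05 by edgeR, and by DESeq2 0 were called and 1 had an unadjusted p under 0.05, in vehicle. The intervals of 7 of the 8 members at 9 weeks and of 8 at 15 weeks reach past a 2-fold difference on at least one side, the exception being H2-DMa at 9 weeks (-0.64 to 0.96).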

How the data were processed

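The series held 30 libraries in 6 groups of 5, and groups and replicate numbers came from the labels. Per the study's methods and the submitters' processing notes, the authors demultiplexed with bcl2fastq 2.20.0.422, trimmed with Trim Galore, aligned to mouse GRCm38 with STAR, counted reads per gene with featureCounts and estimated FPKM and TPM with StringTie. The remaining versions are not given in the sources used here. The deposited counts are unnormalized whole numbers for 46078 genes, 9265804 to 30806392 per library. The deposited FPKM values, scaled to gene length and library size, served only for the minimum level of a call, and the deposited TPM values only for levels between genes. The deposited coverage values (signal per base, from StringTie) were not used. The study's methods describe a high share of duplicated reads. PCR duplicates were not stated to have been removed, so the counts may include them, and no counting interval was derived.

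CPM is the count scaled to the library's total. Counts were fitted with edgeR 4.0.16 in R 4.3.3 (quasi-likelihood test, TMM factors 0.832 to 1.10, common biological coefficient of variation 0.319), with 1 coefficient per group over all 30 libraries, on 16261 genes kept by the filter on low counts. A pooled change is the mean of the female and male changes, and standard errors come from the F statistic. Log2 CPM used a prior count of 2. p-values were adjusted by Benjamini-Hochberg over all genes tested, and the script was tested on simulated data. Marker scores average the log2 CPM of a list's genes. Correlations used 100000 permutations. DESeq2 1.42.0 was an alternative, and an adjusted p given as NA stayed NA. The thresholds of a call are those of the study's methods.

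The members and lists were chosen with earlier results of these data known, the lists coming from general knowledge of the cell types and pathways and the promoter motifs after the sequences had been seen. Genes named are the 8 members, up to 3 called genes with the largest change in a list, defining genes (Ifng, Irf1, H2-Oa, H2-Ob, H2-Ea-ps, Ptprc, Cd79a, Itgax, Csf1r, Cd3e and Epcam, with 1 further gene not reported here) and the 10 genes most like the members. H2-Eb2, Rfx5, the genes that missed only the FPKM minimum and the values of Mical1 and H2-Q6 were singled out after their values were seen. Within groups, the 60 pairs of libraries had Spearman correlations of 0.936 to 0.992 and differed beyond sampling noise (chi-square per degree of freedom 13.7 to 296.7), so no library was a copy of another. The labels do not say more of how replicates were taken than that they are separate samples, and p-values measure the spread between these samples.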

Additional observations from a re-analysis of the deposited data

Results flagged for a closer look

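In each of the 48 combinations of a member and a group of 5, the highest and the lowest library were compared with the rest, and in 10 the outermost library lay farther off than Dixon's 95% critical value for 5 samples, 0.71, allows. Chance alone gives about 1 such group in 20, and the members are not independent of each other. In female 9-week replicate 5, 5 members were low, with log2 CPM of 5.28 for H2-Aa, 4.90 for H2-Eb1, 6.68 for Cd74, 1.88 for Ciita and 2.79 for H2-DMb1. In that library the leukocyte sum was 61.1 CPM and the interferon-gamma-induced sum 234 CPM, each the lowest of the 10 libraries at 9 weeks. In male vehicle replicate 3, 3 members were low, with log2 CPM of 3.75 for H2-Ab1, 3.84 for H2-Eb1 and 1.76 for H2-DMa. H2-DMb2 was low in female 15-week replicate 1, at -1.64, and high in male 15-week replicate 2, at 3.17. In the same 2 libraries the B cell sum was 1.68 CPM, the lowest, and 95.4 CPM, the highest, of the 15-week libraries.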

How the results depend on the processing

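The direction of the rise of the 7 members other than H2-DMb2 was the same in every alternative run, and the count of members called for sex or its interaction with AOM/DSS was 0 in every one. The median log2 change of the 8 members was 3.38 at 9 weeks, 2.37 at 15 weeks and -0.87 from 9 to 15 weeks. It ran from 3.18 to 3.59, from 2.22 to 2.64 and from -0.99 to -0.71 with single libraries left out. At 9 weeks it was 2.24 with the dendritic cell score, 2.003 with the leukocyte score and 2.28 with the macrophage score, and from 9 to 15 weeks it was 0.17, 0.11 and 0.13 with those scores. The change of H2-DMb2 at 9 weeks was -0.17 with the dendritic cell and -0.97 with the leukocyte score. At 15 weeks it was -0.0166, -0.63 and, with the T and NK cell score, -0.22, and -0.36 to 0.42 with single libraries left out. From 9 to 15 weeks the dendritic cell, leukocyte and macrophage scores gave 0.18, 0.082 and 0.36 for H2-Aa and 0.20, 0.14 and 0.31 for H2-Ab1. They gave 0.21, 0.17 and 0.38 for H2-Eb1 and 0.27, 0.27 and 0.44 for Cd74, and the first 2 gave 0.16 and 0.35 for H2-DMb2. The same scores, in that order, gave -0.24, -0.21 and -0.45 for Ciita and -0.12, -0.12 and -0.07 for H2-DMa. For H2-DMb1 they gave -0.10, -0.08 and -0.05, and the macrophage score gave -0.10 for H2-DMb2. The SE of these changes ran from 0.297 for H2-DMa to 0.657 for H2-DMb2, both with the macrophage score. The difference of males from females in vehicle was -0.0586 with the dendritic cell and -0.15 with the macrophage score for H2-Ab1, and -0.0148 with the macrophage score for Cd74. For H2-Ab1 at 15 weeks it was 0.12 with the leukocyte score and -0.45 to 0.26 with single libraries left out. The interaction for H2-Ab1 was 0.21, 0.27 and 0.10 at 9 weeks with the dendritic cell, macrophage and mesenchymal scores, and 0.14 at 15 weeks with the macrophage score. The scores themselves move with treatment, and beyond that the cause was not tested.

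Of the listed genes that are not members, 35 were called higher at 9 weeks (31 to 38 with single libraries left out) and 19 at 15 weeks (16 to 21). By the adjusted p alone 2 were lower at 9 weeks, against 0. At 15 weeks 10 were lower, against 2 without the 3 libraries that stood apart, 4 by DESeq2, 4 with only the compared groups fitted, 2 with the replicate block and 2 to 10 with single libraries left out, the lowest without female vehicle replicate 1. Of the 21 relations 10 passed by r, 9 with each sex centred, and 1 without the 2 outermost libraries, where r at 15 weeks was -0.332 for dendritic cells, -0.0455 for macrophages and -0.318 for T and NK cells. Replicate numbers did not pair the libraries, as 12 of 75 pairs of libraries with the same number in different groups had deviations correlated over 0.1, against 95 of 300 with different numbers. With the replicate block the medians were 3.39, 2.37 and -0.91, and 36 listed genes were higher at 9 weeks. Depth limits H2-DMb2 most, which had as few as 4 reads in a library. Ciita, H2-DMb1 and H2-DMa had as few as 13, 14 and 20 reads, in female vehicle libraries, so their changes against vehicle also rest on low counts there.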
